A study of Homo sapiens with 8 samples.

Results

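A set of 10 genes that start, brake or sense blood coagulation or restrain complement was followed in a human lung adenocarcinoma model: F3, TFPI, TFPI2, THBD, PROCR, F2R, F2RL1, C4BPA, C4BPB and CD55. They were selected by symbol from earlier results of the same libraries, in which C4BPB and F3 stood far higher with the hairpin against HSF1. All 10 of 10 were found among 63677 counted gene IDs. Because the shHSF1 to shNTC difference was used to choose the set, members' values in it are a description that supports nothing, the count past the threshold included, and p-values are given for members only between PC9-BrM3 and PC9 parental.

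The 8 RNA-seq libraries form 4 groups of 2. The shHSF1 group is PC9-BrM3 with a lentiviral Tet-pLKO vector whose doxycycline-inducible hairpin targets HSF1 (1 hairpin), and shNTC is PC9-BrM3 with the same vector and a non-target hairpin. Both were selected in puromycin for 5 days and given doxycycline at 500 ng/mL for 48 h. PC9-BrM3 itself is a brain metastatic subline, and PC9 parental is the line it came from; both were untransduced, without selection or doxycycline, and were grown for 48 h to a sub-confluent state. PC9 carries an activating EGFR mutation. Whether libraries of a group came from separate cultures is not given in the sources used here, so p-values below reflect how far the libraries of a group differ, a spread that may be technical only.

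F3 encodes tissue factor, the membrane receptor that binds factor VIIa and starts coagulation. TFPI and TFPI2 encode Kunitz-type protease inhibitors, the first of which blocks the tissue factor, factor VIIa and factor Xa complex. THBD (thrombomodulin) and PROCR (the endothelial protein C receptor) together let thrombin activate protein C, which shuts coagulation down. F2R and F2RL1 encode the protease-activated receptors PAR1 and PAR2, through which thrombin (PAR1) and the tissue factor complexes or trypsin-like proteases (PAR2) signal to cells. C4BPA and C4BPB encode the alpha and beta chains of C4b-binding protein, a plasma inhibitor of the classical complement pathway made mainly in liver, and the beta chain also binds protein S, a cofactor of activated protein C. CD55 (decay-accelerating factor) removes complement convertases from the cell surface. Tumour cells of epithelial origin commonly carry tissue factor.

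Promoter sequences are shown for the 3 genes with the largest fitted fold in shHSF1 over shNTC among the members that passed the filter on low counts, F3, TFPI2 and C4BPB, so that their start regions can be compared. Each spans 250 bases before to 50 bases after a transcription start, as RefSeq gives it on GRCh38.p14, written 5′ to 3′ on the gene's strand. Capitals mark matches to motifs searched on both strands: AP-1 (TGANTCA), the heat shock element core (GAANNTTC or TTCNNGAA), TEAD (GGAATG) and the NF-kB motif. F3 lies at chr1:94541710-94542009 (minus strand), TFPI2 at chr7:93890704-93891003 (minus strand), and C4BPB has a first listed start at chr1:207088610-207088909 and a second at chr1:207088989-207089288 (both plus strand). The third listed C4BPB start, chr1:207089033-207089332, overlaps the second and is not printed.
F3: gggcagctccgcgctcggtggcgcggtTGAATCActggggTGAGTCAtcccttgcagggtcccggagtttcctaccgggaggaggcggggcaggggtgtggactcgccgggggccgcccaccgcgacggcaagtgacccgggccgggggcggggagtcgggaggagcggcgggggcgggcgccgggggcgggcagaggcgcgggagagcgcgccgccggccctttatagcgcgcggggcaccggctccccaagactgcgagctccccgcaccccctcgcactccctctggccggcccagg
TFPI2: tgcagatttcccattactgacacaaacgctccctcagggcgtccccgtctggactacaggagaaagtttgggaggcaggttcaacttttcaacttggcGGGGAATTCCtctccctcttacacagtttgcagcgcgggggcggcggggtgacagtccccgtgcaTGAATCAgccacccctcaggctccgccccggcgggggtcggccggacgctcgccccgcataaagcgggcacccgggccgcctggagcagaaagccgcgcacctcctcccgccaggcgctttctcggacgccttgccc
C4BPB first start: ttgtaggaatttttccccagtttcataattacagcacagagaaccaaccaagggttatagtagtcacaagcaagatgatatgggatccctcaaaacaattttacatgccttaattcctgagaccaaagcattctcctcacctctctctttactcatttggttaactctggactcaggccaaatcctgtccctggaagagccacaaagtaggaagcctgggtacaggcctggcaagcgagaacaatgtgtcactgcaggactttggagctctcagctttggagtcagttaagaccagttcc
C4BPB second start: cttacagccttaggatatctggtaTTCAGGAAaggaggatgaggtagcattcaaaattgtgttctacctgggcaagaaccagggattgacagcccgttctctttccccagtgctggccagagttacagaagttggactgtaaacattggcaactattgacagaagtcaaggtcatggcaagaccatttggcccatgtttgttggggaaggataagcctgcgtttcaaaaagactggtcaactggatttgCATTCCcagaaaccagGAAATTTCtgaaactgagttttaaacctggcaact

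The F3 window held 2 AP-1 matches, beginning 223 and 210 bases before the start. TFPI2 held 1 AP-1 match 87 bases before the start and 1 NF-kB match 152 bases before it. At the second C4BPB start, heat shock element matches began 226 bases before and 15 bases after the start, and the TEAD match spanned the start. Counted from the third start, the second of these heat shock element matches began 29 bases before it and the TEAD match 45 bases before it. The first C4BPB start held none of the 4 motifs. For scale, 7.71% of 35116 RefSeq promoters of this length held the AP-1 motif, 13.5% the heat shock element, 14.0% the TEAD motif and 5.91% the NF-kB motif. Of the other members with an entry, F2RL1 had a TEAD match 194 bases before its start, and C4BPA, CD55, TFPI and PROCR had no match in this window. In all, 8 of 10 members had an entry in the table; THBD and F2R had none. These matches are letters in a window and say nothing on binding.

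Gene-assigned counts per library ran from 33550140 to 56715336, so that 3 counts, taken as the limit that a count of 0 allows, stand for 0.0529 to 0.0894 CPM (counts scaled to library size). HSF1 averaged 14.5 ± 1.47 CPM in shHSF1 and 181 ± 3.80 CPM in shNTC (SD, n = 2 each; edgeR adjusted p = 2.66e-08), against 53.6 ± 1.33 CPM in PC9-BrM3 and 48.5 ± 2.16 CPM in PC9 parental. Replicate 2 of PC9-BrM3 stood apart, with 17.3% of its counts on mitochondrial genes against 1.40% to 6.23% in the other 7 libraries; 8.01% of genes differed over 2-fold within the PC9-BrM3 pair, against 0.268% to 0.507% within the other pairs. For the members and other genes tested between PC9-BrM3 and PC9 parental and named below, the effect of leaving that library out is therefore also given. Such a fit leaves 1 PC9-BrM3 library, so its spread comes from the PC9 parental pair alone. A pass in it is not read as a result. The file headers place the transduced libraries on lane 1 and the untransduced ones on lane 7, so lane, transduction, selection and doxycycline cannot be told apart between those sets and no test was made across them. Of 8 epithelial and lung adenocarcinoma markers 7 were at or above 1 CPM in every group, the exception being NKX2-1. ALB, FGA and FGB, made by hepatocytes, had 0 counts in all 8 libraries, and 8 blood and immune markers summed to 0.563 to 1.57 CPM. Of 8 endothelial markers, PECAM1 and CLDN5 had 0 counts in all 8 libraries, but CDH5 and ESAM were at or above 1 CPM in every group. That list summed to 36.7 to 68.7 CPM. In bulk RNA such as this, fewer cells that carry a transcript and less of it per cell cannot be told apart.

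Tissue factor was the most abundant member in shHSF1. F3 (ENSG00000117525, GRCh37 chr1:94994781-95007356, minus strand) had 745 and 688 CPM in shHSF1, against 137 and 121 CPM in shNTC. The 2 groups lay far apart, with both shHSF1 libraries above both shNTC libraries. The fitted log2 fold change was 2.50 ± 0.08 (SE), or 5.65-fold. A list of 8 fibroblast markers also summed higher, at 28.8 to 31.2 CPM in shHSF1, against 14.0 to 14.4 CPM in shNTC, from COL1A1 and ACTA2, the members of that list at or above 1 CPM, while DCN and LUM were at 0 counts in all 8 libraries. Its part in the values of F3 and the other members was not tested. In the untransduced cells F3 had 99.0 and 134 CPM in PC9-BrM3, against 95.3 and 118 CPM in PC9 parental. These ranges overlapped, and the log2 fold change of 0.13 ± 0.21 did not pass the test (edgeR quasi-likelihood, adjusted p = 0.716). The log2 fold change was -0.11 without PC9-BrM3 replicate 2, 0.33 without PC9-BrM3 replicate 1 and -0.03 without PC9 parental replicate 1. Its sign thus depended on the library left out.

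**Figure D1:**
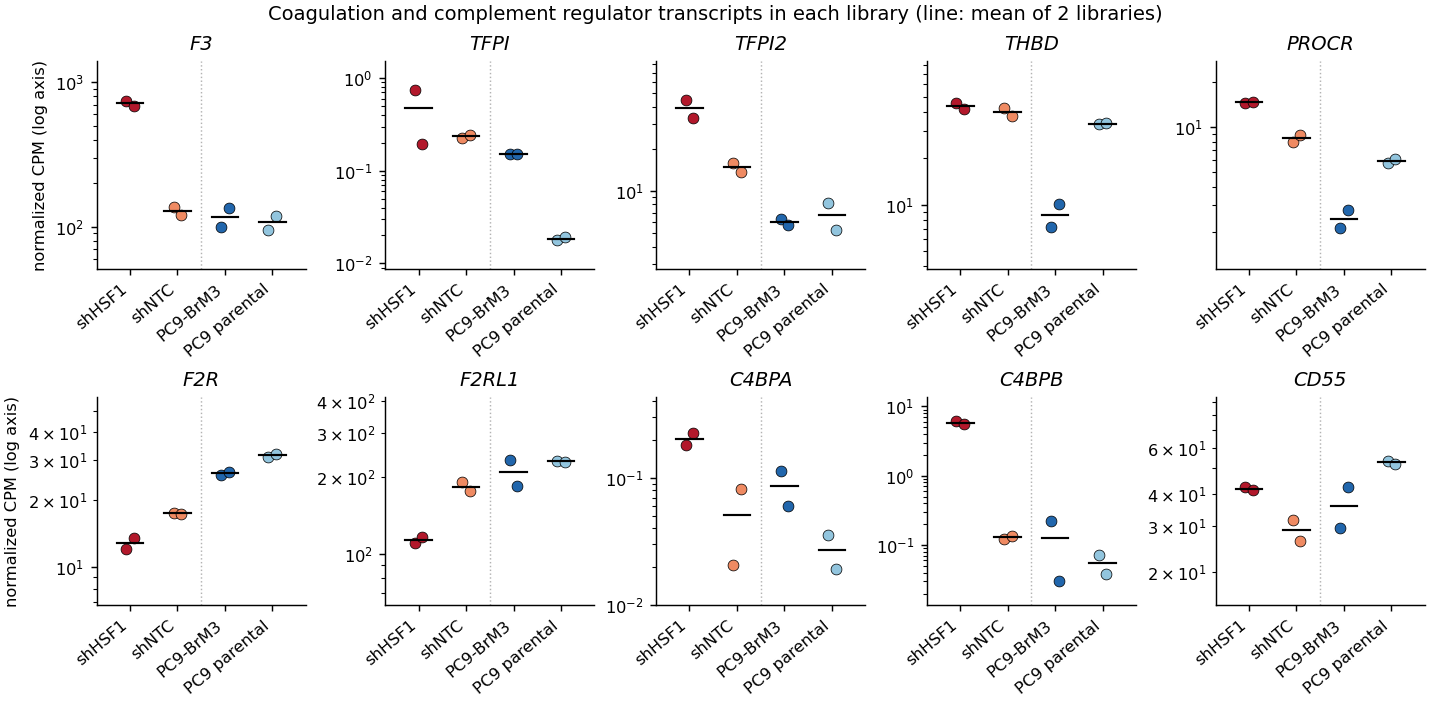
CPM of each of the 10 genes in every library (log axis), 1 panel per gene, with points for the 2 libraries of each group and a bar at their mean. C4BPB and F3 stand highest in shHSF1, THBD and PROCR lowest in PC9-BrM3, and TFPI and C4BPA lie under 1 CPM in all 8 libraries.

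The 2 Kunitz inhibitors were at very different levels. TFPI2 (ENSG00000105825, GRCh37 chr7:93514709-93520303, minus strand) had 44.6 and 33.2 CPM in shHSF1, against 15.8 and 13.6 CPM in shNTC. Both shHSF1 libraries were above both shNTC libraries, 2.68-fold in the fit (log2 fold change 1.42 ± 0.14). In PC9-BrM3 it had 6.27 and 5.74 CPM, against 8.18 and 5.22 CPM in PC9 parental; the groups overlapped and the difference did not pass (log2 fold change -0.15 ± 0.28, edgeR adjusted p = 0.765; -0.10 without PC9-BrM3 replicate 2).

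TFPI (ENSG00000003436, GRCh37 chr2:188328957-188430487, minus strand), the main plasma brake on tissue factor, had at most 29 counts in any library and did not pass the filter on low counts in either comparison. Its counts were 29 and 7 in shHSF1, 11 and 9 in shNTC, 8 and 5 in PC9-BrM3 and 1 and 1 in PC9 parental. One shHSF1 library was above and the other below both shNTC libraries in CPM (0.745 and 0.196 against 0.227 and 0.245). The ratio of summed counts per depth was 2.05 for shHSF1 over shNTC. For PC9-BrM3 over PC9 parental it was 8.17 (95% exact interval 1.85 to 74.6, counting error only).

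Both receptors of the protein C pathway fell in PC9-BrM3. THBD (ENSG00000178726, GRCh37 chr20:23026270-23030378, minus strand, a single exon) had 7.13 and 10.1 CPM in PC9-BrM3, against 33.2 and 33.8 CPM in PC9 parental. Both PC9-BrM3 libraries were below both PC9 parental libraries, 3.87-fold on the fitted scale (log2 fold change -1.95 ± 0.22, edgeR adjusted p = 0.0100). Without PC9-BrM3 replicate 2 the log2 fold change of THBD was -2.23. THBD was lower in all 11 alternatives, where the log2 fold change ran from -2.23 to -1.72. Between the transduced groups THBD had 45.5 and 41.5 CPM in shHSF1, against 42.0 and 37.4 CPM in shNTC. These ranges overlapped, with a log2 fold change of 0.15 ± 0.09.

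PROCR (ENSG00000101000, GRCh37 chr20:33759876-33765165, plus strand) had 2.10 and 2.80 CPM in PC9-BrM3, against 5.77 and 6.14 CPM in PC9 parental. The groups did not overlap, and PROCR fell 2.43-fold (log2 fold change -1.28 ± 0.25, edgeR adjusted p = 0.0408). Without PC9-BrM3 replicate 2 the value was -1.51, but without PC9 parental replicate 1 or 2 the call was lost. Over all alternatives the log2 fold change ran from -1.51 to -1.08. In the transduced cells PROCR had 14.6 and 14.8 CPM in shHSF1, against 8.01 and 8.93 CPM in shNTC, without overlap (log2 fold change 0.82 ± 0.11, 1.77-fold).

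THBD and PROCR are known best from endothelium. The summed level of 8 endothelial markers was 36.7 to 47.5 CPM in PC9-BrM3, against 64.7 to 67.4 CPM in PC9 parental, and 42.7 to 45.9 CPM in shHSF1, against 61.2 to 68.7 CPM in shNTC. Only CDH5 and ESAM of that list reached 1 CPM in any group, and PECAM1 and CLDN5 were at 0 throughout. The part of this list in the THBD and PROCR differences was not tested.

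Per kilobase of counted exon, a scale on which genes can be set side by side, F3 stood at 23.4 and 23.7 times THBD in shHSF1, against 4.66 and 4.60 times in shNTC. In the untransduced cells the same ratio was 19.8 and 19.0 in PC9-BrM3, against 4.11 and 5.00 in PC9 parental. The ratio was thus higher in both contrasts, through F3 in the transduced cells and through THBD in the untransduced cells. With 2 libraries a group an exact two-sided permutation test cannot go below 0.333, the value it gave for PC9-BrM3 against PC9 parental. PROCR over THBD was 0.978 and 1.09 in shHSF1, against 0.581 and 0.727 in shNTC, and 0.898 and 0.844 in PC9-BrM3, against 0.530 and 0.554 in PC9 parental.

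The 2 protease-activated receptors were lower in shHSF1. F2RL1 (PAR2; ENSG00000164251, GRCh37 chr5:76114758-76131140, plus strand) had 111 and 116 CPM in shHSF1, against 192 and 176 CPM in shNTC (log2 fold change -0.68 ± 0.07, 1.599-fold lower). F2R (PAR1; ENSG00000181104, GRCh37 chr5:76011868-76031606, plus strand), which lies 83152 bases from it on the same strand, had 12.04 and 13.5 CPM in shHSF1, against 17.4 and 17.3 CPM in shNTC (-0.42 ± 0.10, 1.34-fold lower). For both genes every shHSF1 library was below every shNTC library. Without shHSF1 replicate 1 the log2 fold change of F2R was -0.34.

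Between the untransduced groups neither receptor passed the test. F2RL1 had 235 and 185 CPM in PC9-BrM3, against 233 and 229.5 CPM in PC9 parental, with overlap (log2 fold change -0.13 ± 0.17, edgeR adjusted p = 0.660). Its estimate was 0.02 without PC9-BrM3 replicate 2 and -0.31 without PC9-BrM3 replicate 1. F2R had 25.8 and 26.6 CPM in PC9-BrM3, against 31.0 and 32.1 CPM in PC9 parental, without overlap (-0.26 ± 0.15, edgeR adjusted p = 0.322; -0.30 without PC9-BrM3 replicate 2).

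C4BPB had the largest fold of the set in the transduced cells. C4BPB (ENSG00000123843, GRCh37 chr1:207262187-207273338, plus strand) had 6.11 and 5.49 CPM in shHSF1, against 0.124 and 0.136 CPM in shNTC. The shNTC values rest on 6 and 5 counts and the shHSF1 values on 238 and 196 counts. Both shHSF1 libraries were thus far above both shNTC libraries, 44.6-fold in the fit (log2 fold change 5.48 ± 0.27) and 45.0-fold by summed counts per depth. C4BPB passed the filter on low counts only through shHSF1. In the untransduced cells it had 12 and 1 counts in PC9-BrM3, against 4 and 2 counts in PC9 parental, and did not pass the filter; the ratio was 2.72 (95% exact interval 0.966 to 8.74).

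The alpha chain did not reach a comparable level. C4BPA (ENSG00000123838, GRCh37 chr1:207277607-207318317, plus strand) begins 4269 bases beyond the end of C4BPB on the same strand. It had 7 and 8 counts in shHSF1, against 1 and 3 counts in shNTC, a ratio of 4.28. In PC9-BrM3 it had 6 and 2 counts, against 2 and 1 counts in PC9 parental (ratio 3.35, 95% exact interval 0.805 to 19.6). Per kilobase, C4BPB averaged 1.80 CPM and C4BPA 0.083 CPM in shHSF1. Reads of C4BPA can be uncertain where its pseudogene C4BPAP1, 20524 bases away, has a like sequence, and this likeness was not measured. Hepatocyte markers summed to at most 0.103 CPM in any library.

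CD55 (ENSG00000196352, GRCh37 chr1:207494853-207534311, plus strand) had 42.3 and 41.2 CPM in shHSF1, against 31.6 and 26.3 CPM in shNTC, without overlap (log2 fold change 0.55 ± 0.10, 1.46-fold). In PC9-BrM3 it had 29.5 and 42.6 CPM, against 53.3 and 52.2 CPM in PC9 parental. Both PC9-BrM3 libraries were lower, but they differed widely from each other and the difference did not pass (-0.54 ± 0.21, edgeR adjusted p = 0.182). With no count filter the difference passed (edgeR adjusted p = 0.0386). The log2 fold change was -0.85 without PC9-BrM3 replicate 2 and -0.30 without PC9-BrM3 replicate 1, with the other alternatives between these.

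Of the 10 members, 8 passed the filter on low counts in shHSF1 against shNTC and 7 in PC9-BrM3 against PC9 parental. In the comparison that chose them, 5 were past the threshold as higher in shHSF1 (F3, TFPI2, PROCR, C4BPB and CD55), beside 22.2% of 16840 tested genes, and 2 as lower (F2R and F2RL1), beside 23.5%. Nothing is read from these counts, since this comparison chose the set and C4BPB passed the filter only through shHSF1. Between PC9-BrM3 and PC9 parental 0 of 7 rose in edgeR, 0 at an unadjusted p under 0.05 and 0 in DESeq2 (3.87% of 17372 tested genes rose in edgeR) and 2 fell, THBD and PROCR (3.27% of tested genes did). The median there was -0.26, against 0.01 over all genes tested. How many members were called depended on the library left out, as it did over all genes.

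**Figure D2:**
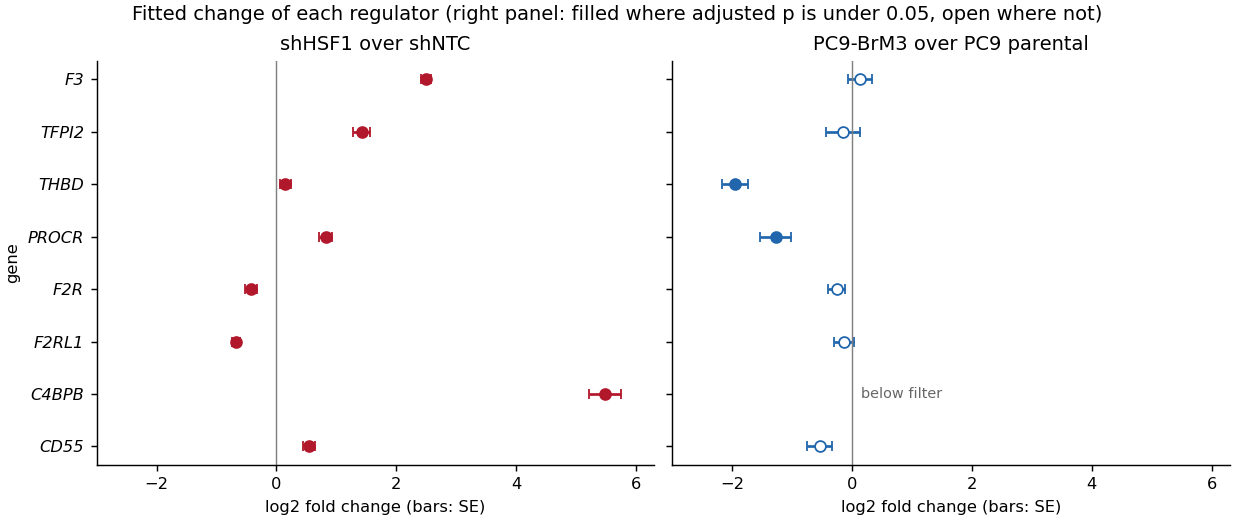
Log2 fold change with its SE for the members that passed the count filter, shHSF1 over shNTC on the left and PC9-BrM3 over PC9 parental on the right. On the right only THBD (-1.95) and PROCR (-1.28) are filled as past adjusted p of 0.05; the left panel carries no test and shows C4BPB at 5.48 and F3 at 2.50.

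The order of the levels, in mean CPM per kilobase, also differed between groups. In shHSF1 F3 led at 249, followed by F2RL1 (38.3), TFPI2 (14.6), PROCR (10.9) and THBD (10.6), the last pair overlapping, then CD55 (9.32), F2R (3.14), C4BPB (1.80), C4BPA (0.083) and TFPI (0.040). In shNTC F2RL1 led at 62.2, followed by F3 (44.8), THBD (9.67), CD55 (6.47) and PROCR (6.28), which overlapped, TFPI2 (5.52) and F2R (4.27). In PC9-BrM3 F2RL1 stood at 70.9, F3 at 40.5, CD55 at 8.05 and F2R at 6.45. Below them THBD (2.10) overlapped both TFPI2 (2.26) and PROCR (1.82). TFPI2 had 2.35 and 2.16 there, above PROCR with 1.56 and 2.07. In PC9 parental F2RL1 stood at 78.2, F3 at 37.1, CD55 at 11.8, THBD at 8.14, F2R at 7.77, PROCR at 4.42 and TFPI2 at 2.52. C4BPB, C4BPA and TFPI were last in shNTC, PC9-BrM3 and PC9 parental.

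Side by side and without a test, shNTC and PC9-BrM3, which share a parent but not a lane or treatment, differed for 3 members by over 2-fold. THBD averaged 39.7 CPM in shNTC and 8.62 CPM in PC9-BrM3, PROCR 8.47 and 2.45 CPM, and TFPI2 14.7 and 6.01 CPM in the same order. F3 averaged 129 CPM in shNTC and 117 CPM in PC9-BrM3. The THBD level of shNTC was thus nearer to PC9 parental (33.5 CPM) than to PC9-BrM3. That of PROCR in shNTC was above both PC9 parental (5.96 CPM) and PC9-BrM3.

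Of 7 tested genes within 250 kb of C4BPB, 5 were higher and 1 lower in shHSF1, beside 22.2% and 23.5% of all tested genes. In the joint fit of all 8 libraries 3 were higher and 1 lower. Nothing is read from these counts, which hold the member CD55 and genes that passed the filter through 1 group only. YOD1, a deubiquitinase, averaged 85.4 CPM in shHSF1 and 29.2 CPM in shNTC (log2 fold change 1.57 ± 0.08, edgeR adjusted p = 6.97e-07). C1orf116 averaged 69.8 CPM in shHSF1 and 21.9 CPM in shNTC (1.69 ± 0.09, adjusted p = 6.97e-07). FCMR, an IgM receptor, was at a low level, with 1.21 CPM in shHSF1 and 0.189 CPM in shNTC (2.62 ± 0.46). Its counts were 59 and 32 in shHSF1, against 13 and 4 in shNTC, so it passed the count filter only through the group where it is high, and its call is no support. PFKFB2, a regulator of glycolysis that ends 7818 bases before C4BPB, averaged 49.3 CPM in shHSF1 and 36.0 CPM in shNTC (0.48 ± 0.10, adjusted p = 0.00271), and did not pass when all 8 libraries were fitted together (adjusted p = 0.237, the highest of its alternatives, whose lowest was 5.59e-07). The fifth is CD55, a member chosen with this comparison in view. The gene that was lower, C4BPAP1, averaged 0.131 CPM in shHSF1 and 0.507 CPM in shNTC. It passed the count filter only through shNTC, where it is high, so its call is no support. Between PC9-BrM3 and PC9 parental 0 of 6 tested neighbours of C4BPB passed in edgeR or in DESeq2, with 1 at an unadjusted p under 0.05 in each. Without PC9-BrM3 replicate 2 the log2 fold change of CD55 was -0.85. Without PC9-BrM3 replicate 1 it was -0.30 for CD55, -0.77 for PFKFB2 and 0.52 for C1orf116.

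Near F3, 4 of 5 tested genes were higher and 1 lower in shHSF1, beside 22.2% and 23.5% of all tested genes. These counts support nothing, since F3 was chosen with this comparison in view. The number higher was 2 in DESeq2, in the joint fit, and without shHSF1 replicate 1 or shNTC replicate 1. ENSG00000235565, a transcript with no symbol whose nearest end lies 79351 bases from F3, averaged 39.5 CPM in shHSF1 and 6.55 CPM in shNTC (log2 fold change 2.62 ± 0.16, edgeR adjusted p = 3.08e-06). SLC44A3-AS1 averaged 14.0 CPM in shHSF1 and 4.23 CPM in shNTC (1.75 ± 0.15, adjusted p = 1.14e-05). ARHGAP29-AS1 had 1.05 CPM in shHSF1 and 0.438 CPM in shNTC (1.29 ± 0.32, adjusted p = 0.00886), a call lost without shHSF1 replicate 1 and without shNTC replicate 1. ABCD3, a peroxisomal transporter 10559 bases from F3, was lower, with 154 CPM in shHSF1 and 183 CPM in shNTC (-0.23 ± 0.06, adjusted p = 0.00744; 0.188 in the joint fit of all 8 libraries). ENSG00000236098 averaged 12.9 CPM in shHSF1 and 10.4 CPM in shNTC (0.34 ± 0.11, adjusted p = 0.0277), a call lost on leaving out any 1 of the 4 libraries. It was also the 1 of 6 F3 neighbours that rose in PC9-BrM3, with 14.6 CPM, against 7.13 CPM in PC9 parental (1.04 ± 0.19, edgeR adjusted p = 0.0361). That call was lost without either PC9 parental library. Without PC9-BrM3 replicate 2 the log2 fold change of ENSG00000236098 was 1.14 and that of ABCD3 was 0.30.

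**Figure D3:**
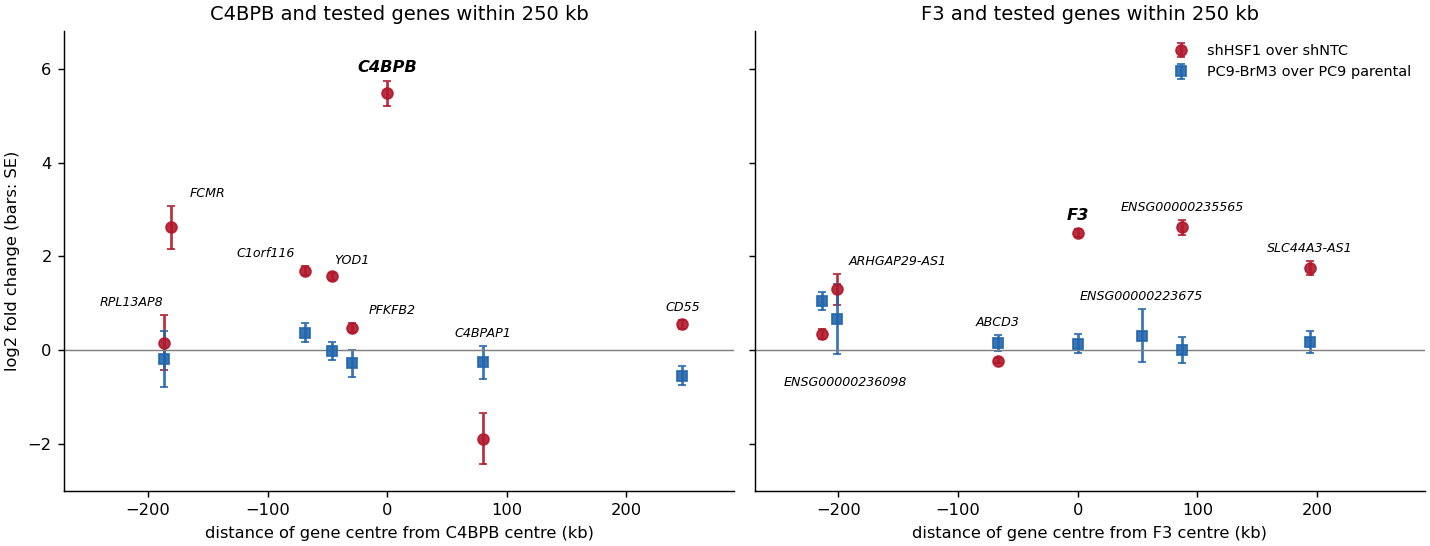
Log2 fold change with its SE (y axis) of genes tested within 250 kb of C4BPB (left) and F3 (right), against the distance between gene centres in kb. Circles are shHSF1 over shNTC and squares PC9-BrM3 over PC9 parental; the circles of YOD1 (1.57), C1orf116 (1.69) and ENSG00000235565 (2.62) lie well above their squares.

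Of 32 other coagulation genes, 12 passed the count filter in shHSF1 against shNTC; 2 were higher and 4 lower (22.2% and 23.5% of all tested genes were), with a median log2 fold change of -0.11 against 0.01 over all genes tested. F12, the contact-phase zymogen, rose, with 15.3 and 17.5 CPM in shHSF1, against 7.97 and 8.41 CPM in shNTC (log2 fold change 1.03 ± 0.11, edgeR adjusted p = 7.02e-05). F12 averaged 0.702 CPM in PC9-BrM3 and 0.724 CPM in PC9 parental. The other gene that was higher is VWF, under 1 CPM in both groups. LMAN1 and MCFD2, which together carry factors V and VIII out of the endoplasmic reticulum, both fell. LMAN1 had 168 and 175 CPM in shHSF1, against 588 and 595 CPM in shNTC (-1.76 ± 0.06, adjusted p = 4.99e-08). MCFD2 had 248 and 263 CPM in shHSF1, against 354 and 352 CPM in shNTC (-0.44 ± 0.06, adjusted p = 0.000167). SERPIND1, heparin cofactor II, averaged 0.311 CPM in shHSF1 and 2.01 CPM in shNTC (-2.66 ± 0.30). Its counts were 10 and 13 in shHSF1, against 93 and 77 in shNTC. It thus passed the count filter only through shNTC, where it is high, and its call is no support. F8, factor VIII, averaged 0.986 CPM in shHSF1 and 1.83 CPM in shNTC (-0.86 ± 0.24, adjusted p = 0.0161), and lost its call without shHSF1 replicate 2 (adjusted p = 0.0933), without shNTC replicate 1 (0.0661) and in DESeq2 (0.102).

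Between PC9-BrM3 and PC9 parental 13 coagulation genes passed the filter, 0 rose in edgeR or DESeq2 (1 at an unadjusted p under 0.05 in each) and 2 fell in edgeR (3.27% of all tested genes did), with a median of -0.24 against 0.01. Both are serpins. SERPIND1 averaged 1.54 CPM in PC9-BrM3 and 6.79 CPM in PC9 parental (log2 fold change -2.12 ± 0.27, edgeR adjusted p = 0.0132). Over the alternatives its log2 fold change ran from -2.38 to -1.93 (-1.93 without PC9-BrM3 replicate 2). SERPINA5, the protein C inhibitor, had 0 counts in both PC9-BrM3 libraries, against 2.10 ± 0.12 CPM in PC9 parental (SD, n = 2). It was at least 60.5-fold lower when PC9-BrM3 is set at 3 counts over the group. SERPINA5 passed the filter only through PC9 parental, so its call is no support. The number of called genes in this list depended on the library left out, as it did over all genes.

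Of 44 other complement genes, 15 passed the filter in shHSF1 against shNTC; 2 were higher and 3 lower (22.2% and 23.5% of all tested genes were), with a median log2 fold change of 0.04 against 0.01 over all genes tested. Other membrane regulators that act beside CD55 were among them. CD59, which blocks the membrane attack complex, averaged 239 CPM in shHSF1 and 219 CPM in shNTC (log2 fold change 0.15 ± 0.05, edgeR adjusted p = 0.0464), a call lost on leaving out any 1 library. CD46, a cofactor for cleavage of C3b and C4b, averaged 233 CPM in shHSF1 and 286 CPM in shNTC (-0.27 ± 0.06, adjusted p = 0.00285). C3 averaged 178 CPM in shHSF1 and 151 CPM in shNTC (0.27 ± 0.06, adjusted p = 0.00330). CSMD1, a membrane inhibitor of complement, averaged 7.52 CPM in shHSF1 and 12.3 CPM in shNTC (-0.69 ± 0.11, adjusted p = 0.000822), and C5 averaged 3.60 and 5.49 CPM in the same order (-0.58 ± 0.17, adjusted p = 0.0176, lost without shHSF1 replicate 2 or shNTC replicate 2). In the joint fit of all 8 libraries CD59, CD46, C3 and C5 did not pass (adjusted p = 0.754, 0.254, 0.187 and 0.0553), nor did CD59 and C5 in DESeq2 (0.104 and 0.0503).

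Between PC9-BrM3 and PC9 parental 18 complement genes passed the filter, 1 rose and 3 fell (3.87% and 3.27% of all tested genes did), with a median of -0.27 against 0.01. The number called was 1 with the filter at 1 CPM, and it depended on the library left out, as it did over all genes. CR2 is a complement receptor whose gene lies 93264 bases from CD55. It had 7.98 and 7.61 CPM in PC9-BrM3, against 28.9 and 29.3 CPM in PC9 parental (log2 fold change -1.89 ± 0.17, edgeR adjusted p = 0.00541). Over the alternatives its log2 fold change ran from -1.93 to -1.87 (-1.87 without PC9-BrM3 replicate 2). Between shHSF1 and shNTC CR2 averaged 22.9 and 20.7 CPM. C1S, a protease of the first complement component, averaged 10.2 CPM in PC9-BrM3 and 3.97 CPM in PC9 parental (1.37 ± 0.28, edgeR adjusted p = 0.0473). That call was lost without either PC9 parental library and with the filter at 1 CPM (adjusted p = 0.0561). Without PC9-BrM3 replicate 2 the log2 fold change of C1S was 1.61. The other genes counted as lower, CFI and MBL2, had 0 counts in PC9-BrM3, against 37 and 24 in PC9 parental, under 1 CPM. Both passed the filter only through PC9 parental, so their calls are no support.

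**Figure D4:**
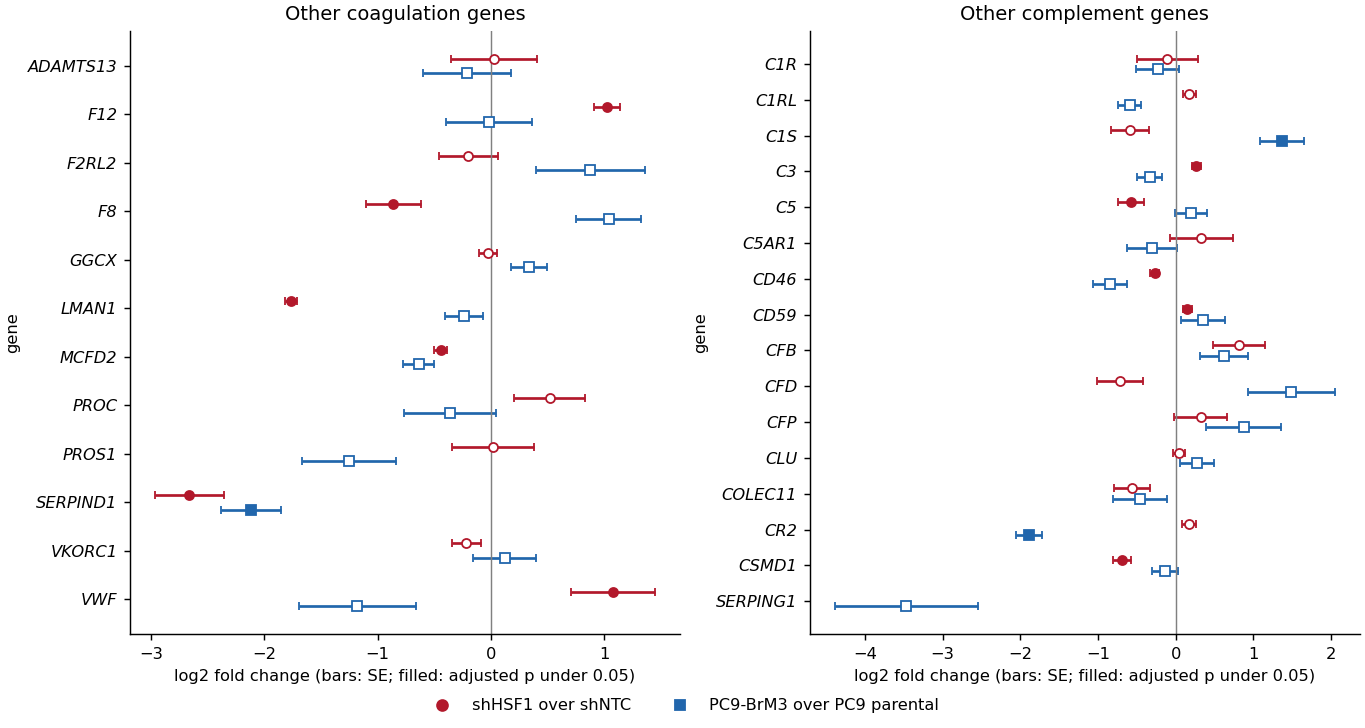
Log2 fold change with its SE (x axis) of the tested coagulation genes (left) and complement genes (right), as circles for shHSF1 over shNTC and squares for PC9-BrM3 over PC9 parental, filled where adjusted p is under 0.05; SERPINA5, CFI and MBL2, at 0 counts in PC9-BrM3, are left out. LMAN1 (-1.76) and F12 (1.03) are filled for shHSF1 alone, CR2 (-1.89) and C1S (1.37) for PC9-BrM3 alone, and SERPIND1 for both.

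The genes whose levels over the 8 libraries were most like those of F3 were DNMT3B (root mean square difference of centred log2 CPM 0.163), CHN1 (0.272), DIO2 (0.285), CCN1 (0.286) and H2BC12 (0.287), out of 13808 genes with a mean of at least 1 CPM. DNMT3B, a de novo DNA methyltransferase, averaged 50.0 CPM in shHSF1 and 10.9 CPM in shNTC, with 8.20 CPM in PC9-BrM3 and 8.38 CPM in PC9 parental. CCN1, a secreted matrix protein, averaged 295 CPM in shHSF1 and 53.8 CPM in shNTC, with 69.2 CPM in PC9-BrM3 and 37.8 CPM in PC9 parental. Nearest to C4BPB were LINC00707 (0.725), IMPDH1P10 (0.834), PTPRR (0.856), GLIPR1 (0.866) and KRT34 (0.891). C4BPB had 1 to 12 counts per library outside shHSF1, so these differences cannot be set against those of F3. LINC00707, IMPDH1P10, PTPRR and GLIPR1 averaged under 1 CPM outside shHSF1 and reached the mean of 1 CPM only through that group. Nearest to THBD were ST8SIA4 (0.226), FAM83A (0.274), FAM222A-AS1 (0.276), MT1X (0.280) and ENSG00000184551 (0.297). FAM83A, for one, averaged 36.2 CPM in PC9-BrM3 and 149 CPM in PC9 parental, with 177 CPM in shHSF1 and 151 CPM in shNTC. These are descriptions over 8 libraries that share 2 lanes, with no test.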

How the data were processed

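Each library's deposited file lists, for every Ensembl gene ID, a whole-number read count without normalization. The counting was done by the authors with featureCounts 1.6.1, per the file headers, which give exons as features, gene_id as the grouping, a GRCh37 annotation and reverse-stranded counting; the submitters' processing notes also name Trim Galore, HISAT2 and DESeq2, without versions. Reads of genes that overlap on opposite strands are thereby kept apart, but those shared by near-identical copies are uncertain. Symbols matched 81.9% of IDs and 10 of 10 members. The deposited exon length gave CPM per kilobase.

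The 4 libraries of a comparison were fitted alone. Genes were kept by filterByExpr at a minimum count of 10 and a total of 15, scaled by TMM and tested in edgeR 4.0.16 under R 4.3.3 by the quasi-likelihood F test with robust fitting on 2 residual degrees of freedom, and Benjamini-Hochberg adjustment at 0.05 over all genes tested. SE is the log2 fold change divided by the root of F. Levels are CPM on TMM factors over all 8 libraries. The test was also run on simulated counts in which 200 genes were changed. No simulated library stood apart as 1 PC9-BrM3 library did, so that case was not checked. Members, gene lists and alternatives (DESeq2 1.42.0, other scaling and filters, a replicate block, each library left out) were chosen with earlier results of these data known. Named genes were all members and HSF1, up to 4 genes per context list, direction and comparison by smallest p with at least 1 CPM in 1 group, neighbours within 250 kb of C4BPB, C4BPA, CD55 and F3 at that level, and the 5 genes most like F3, C4BPB and THBD; the remaining genes in small counts were named after their values were seen. Exact intervals cover counting error only.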

Additional observations from a re-analysis of the deposited data

How the results depend on the processing

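In PC9-BrM3 against PC9 parental the number of genes called (1240) depended strongly on the setting: 2149 with DESeq2, 3159 with no count filter, 3813 with all 8 libraries in 1 fit, and 402 to 9228 on leaving out 1 library (402 and 479 without PC9 parental replicate 1 and 2, 9228 and 5594 without PC9-BrM3 replicate 1 and 2). Called members ran from 1 to 5 (main value 2), coagulation genes from 2 to 8 and complement genes from 1 to 10 on leaving out 1 library. The coagulation list gave 4 with no count filter and 4 with all 8 libraries; the complement list gave 8 and 7 under those settings and 1 with the filter at 1 CPM. In shHSF1 against shNTC 7701 genes were called, 3873 with all 8 libraries in 1 fit, and 6044 to 6514 on leaving out 1 library; the complement list gave 3 with DESeq2 and 1 with all 8 libraries, against 5. The cause of these shifts was not tested. Where 1 library was left out, the lone library of its group was assumed to vary like the other group.

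On leaving out 1 library, some log2 fold changes of PC9-BrM3 over PC9 parental changed sign, among values that had not passed: F3 ran from -0.11 to 0.33 (-0.03 without PC9 parental replicate 1), TFPI2 from -0.45 to 0.19, F2RL1 from -0.31 to 0.016, YOD1 from -0.19 to 0.13 (0.08 without PC9 parental replicate 1), ABCD3 from -0.016 to 0.30, ENSG00000235565 from -0.38 to 0.27 and PFKFB2 from -0.77 to 0.064. No sign changed in shHSF1 against shNTC under these alternatives. Between PC9-BrM3 and PC9 parental THBD, CR2 and SERPIND1 kept their calls in every alternative that left out no library. Over all 11 alternatives the log2 fold change ran from -2.23 to -1.72 for THBD and from -1.93 to -1.87 for CR2. For SERPIND1 it ran from -2.38 to -1.93. SERPINA5 also kept its call where no library was left out, but it passed the filter only through PC9 parental, so this is no support.

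Same-numbered libraries did not deviate together over all genes (correlation -0.00118 for the transduced and 0.00949 for the untransduced pairs). This does not settle whether the numbers pair them. With the replicate block 8015 genes were called in shHSF1 against shNTC and 1328 in PC9-BrM3 against PC9 parental, where 2 members were called as without it. Depth limits C4BPB in the 3 groups without the HSF1 hairpin and TFPI and C4BPA in all 4.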
